A study of Mus musculus with 8 samples.

Results

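The RNA levels of 8 genes of mitochondrial apoptosis were followed in fiber cells (FC) of the mouse lens, with and without exposure to cigarette smoke (CS). They were the anti-apoptotic genes Bcl2, Bcl2l1 and Mcl1, the effectors Bax and Bak1, the BH3-only gene Bid, and the caspase genes Casp6 and Casp9. Each was found by its symbol, once, among the 35275 genes of the deposited table, so that all 8 members had values in all 8 libraries. There were 4 libraries of CS-exposed and 4 of untreated control (Ct) mice (strain C57BL/6 in the labels, C57BL/6J in the methods), and 1 library stands for 1 pool of right-eye FC of 4 mice. Dams of the CS-exposed mice entered the smoke chamber shortly before giving birth, and the pups were exposed there for 3.5 months, 5 hours a day on 5 days of the week, while untreated Ct mice of the same age were kept without smoke. Pools were of males or of females, and the labels do not say which. In both groups eyes were dilated for a lens examination under ketamine/xylazine anesthesia. Mice were killed by cervical dislocation under isoflurane, and the FC of the extracted lenses were taken off the epithelium with forceps. No engineered allele is named for either group.

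BCL2 proteins decide whether the outer membrane of mitochondria is opened. Bcl2, Bcl2l1 (which encodes BCL-XL) and Mcl1 keep it closed by binding BAX and BAK1, the proteins that form the pores, while BH3-only proteins such as BID tip the balance towards opening. Cytochrome c that leaks out activates the initiator caspase encoded by Casp9, which activates executioner caspases. Casp6 encodes an executioner that cleaves nuclear lamins. The lens is a special place for these genes, because a maturing fiber cell breaks down its nucleus and its mitochondria and yet persists as a transparent cell for life.

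Levels are given as FPKM, fragments per kilobase of gene scaled to the depth of the library, which allows genes of different length to be set side by side. Estimated from the steps of the FPKM values and annotated gene lengths, the libraries held 18.1 to 23.3 M fragments (M, 1e6). Markers of FC were present in every library, with 9 genes, among them Mip and Bfsp1, summing to 197402 to 206131 FPKM. Markers of other cells were present as well. The sum of 6 markers of the lens epithelium was 337 to 473 FPKM in untreated Ct libraries, with the highest value in replicate 3, and 326 to 409 FPKM in CS-exposed libraries. The sum of 9 markers of rod photoreceptors was 11.6 to 28.0 FPKM in untreated Ct and 32.8 to 91.6 FPKM in CS-exposed libraries. Groups did not overlap for 8 of these 9 genes, against 3.08% of the 9794 genes tested below. The sum of 4 markers of the retinal pigment epithelium was 0.922 to 1.84 FPKM and 2.68 to 25.4 FPKM. A set of 5 leukocyte markers summed to at most 0.813 FPKM in any library. The part of these cells in the values that follow was not tested, and in pools of cells fewer cells of a type and less RNA per cell cannot be told apart.

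Bax dominated the RNA of these genes. Averaged over the 8 libraries it was at 131 FPKM, rank 279 of the 9794 genes tested (those averaging 1.0 FPKM or more in 1 of the groups), and 9.57 times the level of Mcl1, the next gene. Mcl1 followed with 13.6 FPKM, Bcl2l1 with 4.52, Casp9 with 3.52, Bcl2 with 2.48, Bak1 with 2.19, Bid with 2.10 and Casp6 with 1.03. The lowest Bax value (104 FPKM) lay far above the highest Mcl1 value (15.5 FPKM), and the lowest Mcl1 value (11.8 FPKM) above the highest Bcl2l1 value (5.30 FPKM). Below Mcl1 the ranges of neighbours in this order overlapped. Within a library, Casp9 was nevertheless above Bcl2, and Bid above Casp6, in 8 of 8 libraries, and Bcl2l1 above Casp9 in 7 of 8. Bcl2, Bak1 and Bid had no fixed order, since Bcl2 was above Bak1 in 6 libraries and Bak1 above Bid in 5, namely in 1 untreated Ct library and in all 4 CS-exposed libraries.

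**Figure D1:**
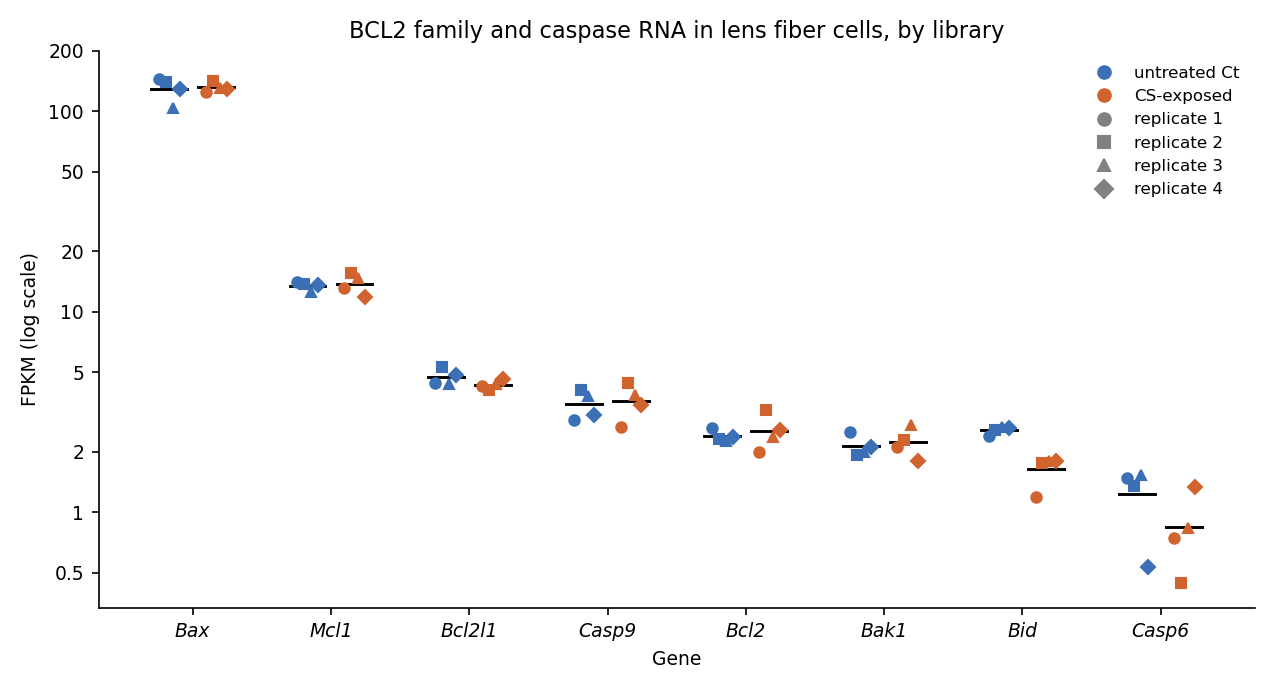
FPKM (log scale) of the 8 genes in each library, ordered by their mean; blue points are untreated Ct libraries, orange points CS-exposed libraries, shapes mark replicate numbers and black bars are group means (n = 4). Bax stands alone above 100 FPKM, and only for Bid do the points of the 2 groups separate.

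These levels depend on the gene length that was used. From the steps of the values, the lengths behind the deposited FPKM were estimated as 869 bases for Bax, 2415 for Bid and 1456 for Casp6, whereas the union of annotated exons (GENCODE M21) is 1576, 3550 and 5584 bases. With the latter lengths and the same reads Bax would be at 72.0 FPKM, still first, with Mcl1 at 13.9 FPKM, Bid at 1.43 FPKM and Casp6 at 0.270 FPKM. The order of neighbours would change in 2 places, since Casp9 (2.64 FPKM) would stand above Bcl2l1 (2.53 FPKM), and Bak1 (2.17 FPKM) above Bcl2 (1.95 FPKM). The FPKM ratio of 1 gene between libraries does not depend on this length, but the minimum of 1.0 FPKM and the 0.1 FPKM added before taking log2 do bear on it, and at 0.270 FPKM Casp6 would not have been tested.

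Bid was the member whose groups separated, although it did not pass the adjustment over all genes. It lies on the minus strand of chromosome 6 of GRCm38 from 120891930 to 120916853 (ENSMUSG00000004446.12), and its product carries the death signal from death receptors to mitochondria once it is cleaved. Bid was at 2.39, 2.56, 2.67 and 2.63 FPKM in untreated Ct replicates 1 to 4 and at 1.20, 1.76, 1.80 and 1.80 FPKM in CS-exposed replicates 1 to 4. The groups did not overlap: the highest CS-exposed value lay under the lowest untreated Ct value, and CS-exposed replicate 1, with 61 reads, was the lowest of all. The means were 1.64 ± 0.294 FPKM in CS-exposed and 2.56 ± 0.122 FPKM in untreated Ct mice (SD over 4 libraries). The fitted difference was -35.5%, which on the log2 scale is -0.63 with a standard error of 0.16 and a 95% interval of -0.97 to -0.29. The unadjusted p was 0.00165 by limma and 0.0286 by a two-sided exact permutation test, the smallest that 4 against 4 libraries allow. After Benjamini-Hochberg adjustment over all 9794 genes tested the limma p was 0.931. Bid had rank 15 by p and rank 191 by absolute log2 fold change among these genes.

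Read against all genes, 1 of 8 members had an unadjusted p under 0.05, where 4.83% of all tested genes did (2.08% lower in CS-exposed mice). Groups did not overlap for 1 of 8 members and for 3.08% of all tested genes (1.29% with CS-exposed values below). After adjustment 0 of 8 members had a limma p under 0.05, and 0.0102% of all tested genes. Every library's Bid value rested on 61 to 150 reads, for which counting error alone gives a coefficient of variation of 9.74%. Between libraries of a group it was 4.76% in untreated Ct and 18.0% in CS-exposed mice. Without CS-exposed replicate 1 the log2 fold change was -0.50 (p = 0.00336 and adjusted p = 0.974 from limma across all genes; 4 against 3 libraries, no exact test run). Without both untreated Ct replicate 3, highest in epithelium markers, and CS-exposed replicate 3, highest in rod and retinal pigment epithelium markers, it was -0.66 (adjusted p = 0.999 from limma). The rod marker sums of the libraries that remained still differed, with 11.6 to 24.3 FPKM in untreated Ct and 32.8 to 55.1 FPKM in CS-exposed mice. So did the sums of retinal pigment epithelium markers, with 0.922 to 1.13 FPKM and 2.68 to 5.78 FPKM, and the part of both in the Bid values was not tested.

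**Figure D2:**
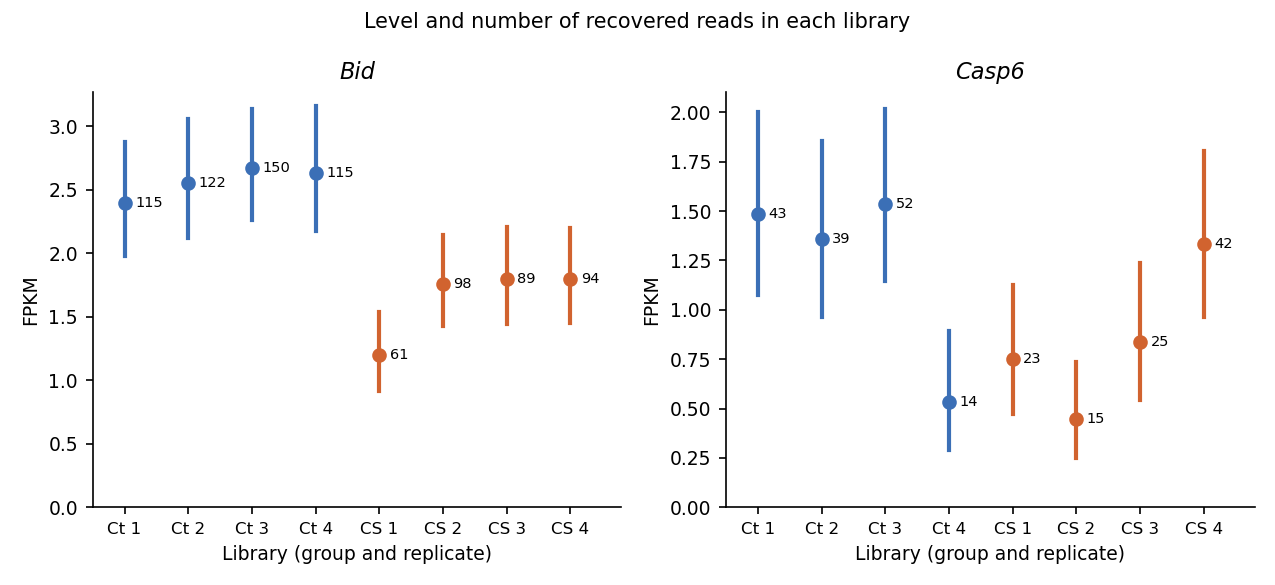
FPKM of Bid and Casp6 in each library (blue untreated Ct, orange CS-exposed); bars are exact Poisson 95% intervals of the read number, which cover counting error only, and the number beside each point is the number of recovered reads. All CS-exposed libraries lie below all untreated Ct libraries for Bid, while for Casp6 untreated Ct replicate 4 and CS-exposed replicate 4 cross over.

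The 3' end of Bid meets another gene of the family. In GENCODE M21 the exons of Bid share 628 bases, 17.7% of their union, with Bcl2l13, which lies on the opposite strand and encodes a BCL2 relative of the mitochondrial membrane. The labels and methods do not say that reads were counted by strand, so reads from this stretch cannot be assigned to 1 of both genes. Bcl2l13 itself was at 24.0 to 26.0 FPKM in all libraries, with a log2 fold change of 0.00 and a 95% interval of -0.12 to 0.12.

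The start regions of Bid and Bax are shown because they belong to the member whose groups separated and to the member with the highest level. Both are RefSeq windows of GRCm38.p6 that reach from 250 bases before to 50 bases after the annotated start, written 5' to 3' along the gene, with the letters GGGCGG (a GC box, the site of SP1-like factors), on either strand, in capitals. Bid is chr6:120916775-120917074 (minus strand) and Bax is chr7:45466849-45467148 (minus strand).
Bid: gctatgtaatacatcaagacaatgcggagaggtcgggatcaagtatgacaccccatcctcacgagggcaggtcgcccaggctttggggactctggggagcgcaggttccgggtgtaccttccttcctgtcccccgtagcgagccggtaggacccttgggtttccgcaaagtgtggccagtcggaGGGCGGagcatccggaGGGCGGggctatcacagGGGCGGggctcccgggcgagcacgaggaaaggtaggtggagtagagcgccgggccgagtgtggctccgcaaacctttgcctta
Bax: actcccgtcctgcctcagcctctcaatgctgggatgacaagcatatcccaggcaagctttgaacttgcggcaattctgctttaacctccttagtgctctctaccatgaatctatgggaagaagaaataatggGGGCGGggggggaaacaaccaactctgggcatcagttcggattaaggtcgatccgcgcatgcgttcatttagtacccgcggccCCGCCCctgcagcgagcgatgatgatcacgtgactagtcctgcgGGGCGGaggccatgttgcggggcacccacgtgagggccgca
Bid carried 3 GC boxes on the gene's strand, between 66 and 28 bases before the start. Bax carried 3 as well, of which 1 lay after the start. All 8 members had an entry, with 10 windows in all because Bcl2l1 has 3 starts, and GGGCGG was found in 6 of the 10 windows against 35.7% of the 32851 windows of all genes. Bcl2 had the most, with 7. The letters TATAAA and CCAAT were found in 0 of 10 windows against 13.6% and 37.4% of all windows. TGACNNNGC, the core of the antioxidant response element, was found in 1 window of Bcl2l1 against 12.4%, and TNGCGTG, the core bound by the aryl hydrocarbon receptor, in 0 of 10 against 5.1%. A match is a description of letters, and nothing about binding was measured here.

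Casp6 had the lowest and the most scattered level. This gene, on chromosome 3 from 129901425 to 129914103 (ENSMUSG00000027997.9), was at 1.49, 1.36, 1.54 and 0.531 FPKM in untreated Ct replicates 1 to 4 and at 0.749, 0.446, 0.837 and 1.33 FPKM in CS-exposed replicates 1 to 4. Untreated Ct replicate 4 fell among the CS-exposed values and CS-exposed replicate 4 close to the other untreated Ct values, so that the groups overlapped. The log2 fold change of -0.48 (standard error 0.37, 95% interval -1.30 to 0.33) was within the spread between libraries (limma p = 0.217, exact permutation p = 0.286). Only 14 to 52 reads stood behind each value, and the coefficient of variation within groups was 38.3% in untreated Ct and 43.8% in CS-exposed mice, where counting alone gives 17.8%. The size of this difference depended on single libraries, with -0.81 without untreated Ct replicate 4 (adjusted p = 0.944 from limma across all genes), -0.71 without CS-exposed replicate 4 and -0.25 without CS-exposed replicate 2. On the linear scale the interval ran from -59.3% to 25.5%.

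Casp9, the initiator that the apoptosome activates, is on chromosome 4 from 141793612 to 141815976 (ENSMUSG00000028914.13). Casp9 was at 2.89, 4.09, 3.81 and 3.05 FPKM in untreated Ct replicates and at 2.66, 4.40, 3.83 and 3.42 FPKM in CS-exposed replicates 1 to 4. The ranges of both groups almost coincided, and in both groups replicate 1 was the lowest and replicate 2 the highest. On the log2 scale the difference was 0.04 (standard error 0.16, 95% interval -0.32 to 0.40, limma p = 0.820, exact permutation p = 0.857). Its 215 to 396 recovered reads would by counting error alone give a coefficient of variation of 5.89%, whereas 16.8% and 20.4% were found in untreated Ct and CS-exposed mice.

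Bax opens mitochondria and had the highest level. It lies on chromosome 7 from 45461697 to 45466898 (ENSMUSG00000003873.11). Bax was at 145, 140, 104 and 130 FPKM in untreated Ct replicates and at 125, 142, 131 and 129 FPKM in CS-exposed replicates 1 to 4. Every CS-exposed value lay inside the range of untreated Ct values, whose lowest was replicate 3, the library with the highest sum of lens epithelium markers (473 FPKM). Its log2 fold change was 0.04 (standard error 0.09, 95% interval -0.16 to 0.23, limma p = 0.688, exact permutation p = 0.857), and it was -0.07 without untreated Ct replicate 3. Bax was measured with 2037 to 2847 reads per library, and still its residual SD of 0.16 on the log2 scale was above that of 96.7% of the 183 genes within 1.5-fold of its level, whose median was 0.08. Of its exon union, 12.2% (192 bases) is shared with Gm45808, a gene of the same strand.

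Bak1, the second effector, was low. It lies on chromosome 17 from 27019810 to 27029009 (ENSMUSG00000057789.14). Its exons overlap those of entries named Ggnbp1 on the opposite strand, by 177 bases (7.4% of their union) and by 437 bases (18.2%). As for Bid, reads from these stretches cannot be assigned to 1 gene. Bak1 was at 2.53, 1.93, 2.00 and 2.11 FPKM in untreated Ct replicates and at 2.12, 2.30, 2.71 and 1.80 FPKM in CS-exposed replicates 1 to 4. The fitted difference (log2) was 0.05 (standard error 0.15, 95% interval -0.29 to 0.39, limma p = 0.740, exact permutation p = 0.714). Each value rested on 91 to 133 reads. The groups overlapped, with CS-exposed libraries at both ends of the order.

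Among the 3 anti-apoptotic members, Mcl1, whose protein is short-lived and is replaced by steady synthesis, was the most abundant. Mcl1 (chromosome 3 from 95658788 to 95663176, ENSMUSG00000038612.16) was at 14.1, 13.8, 12.5 and 13.6 FPKM in untreated Ct replicates and at 13.1, 15.5, 14.7 and 11.8 FPKM in CS-exposed replicates 1 to 4. The CS-exposed values scattered on both sides of the untreated Ct values. Between groups the log2 fold change was 0.02 (standard error 0.09, 95% interval -0.17 to 0.22, limma p = 0.801, exact permutation p = 0.800), an interval of -11.4% to 16.5% on the linear scale.

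Bcl2l1, on chromosome 2 from 152780668 to 152831728 (ENSMUSG00000007659.18), was at 4.43, 5.30, 4.34 and 4.84 FPKM in untreated Ct replicates and at 4.24, 4.06, 4.36 and 4.61 FPKM in CS-exposed replicates 1 to 4. Of its CS-exposed values, 2 of 4 lay below every untreated Ct value and none above all of them. CS-exposed replicate 4 (4.61 FPKM) lay above untreated Ct replicates 1 and 3. The log2 fold change was -0.12 (standard error 0.10, limma p = 0.228, exact permutation p = 0.171), and its 95% interval, -0.34 to 0.09, included no change. Bcl2l1 was also the member with the smallest residual SD on the log2 scale, 0.11, and only 12.9% of the 2580 genes of similar level had a smaller one.

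Bcl2, the founding gene of the family, spans chromosome 1 from 106538178 to 106714274 (ENSMUSG00000057329.7). Bcl2 was at 2.64, 2.32, 2.28 and 2.38 FPKM in untreated Ct replicates and at 2.01, 3.25, 2.38 and 2.58 FPKM in CS-exposed replicates 1 to 4. The lowest and the highest of the 8 values were both CS-exposed. The log2 fold change was 0.07 (standard error 0.15, 95% interval -0.26 to 0.39, limma p = 0.670, exact permutation p = 0.714). Of its exon union, 6.1% is shared with an antisense gene, D630008O14Rik.

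The extreme values were spread over 7 of the 8 libraries. CS-exposed replicate 2 had the highest Bcl2, Mcl1 and Casp9 and the lowest Bcl2l1 and Casp6 of all 8 libraries, and CS-exposed replicate 1 had the lowest Bcl2, Bid and Casp9. Untreated Ct replicate 4 held none. Over the 8 members, 3 log2 fold changes were below 0 and 5 above, with a median of 0.03, and over all genes tested the median was 0.00.

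**Figure D3:**
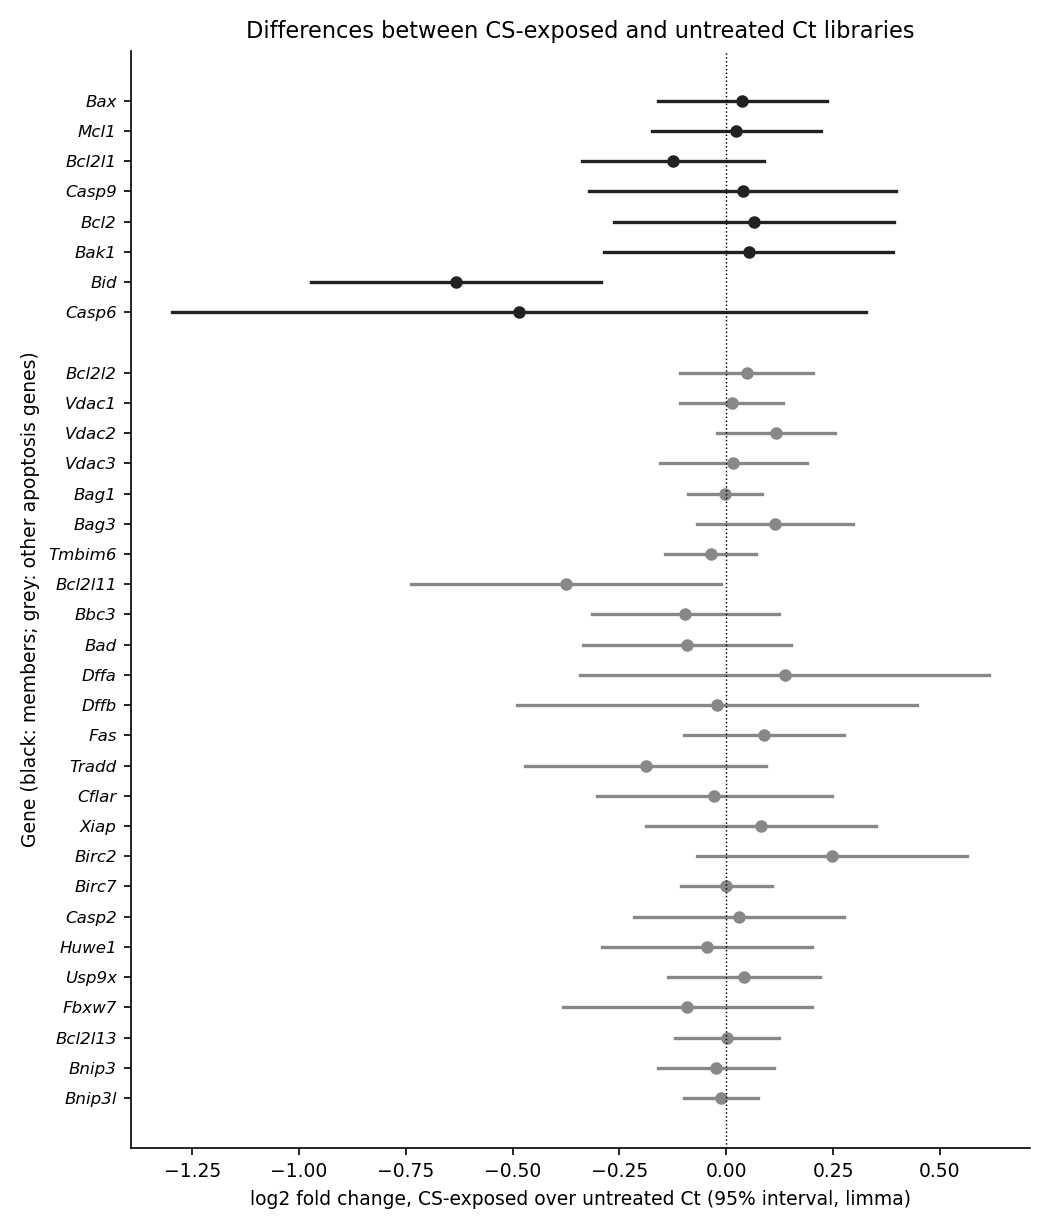
log2 fold change of CS-exposed over untreated Ct libraries on the log2(FPKM + 0.1) scale with 95% intervals from limma (n = 4 against 4), for the 8 members (black) and for tested genes of the wider pathway with the highest levels in their roles, not all of them (grey). The intervals of Bid (-0.97 to -0.29) and of Bcl2l11 (-0.74 to -0.01) do not reach 0.

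The balance between members was read within each library, where it does not depend on depth but does depend on the gene lengths used. Bax exceeded Bcl2 by 43.7 to 62.2 times and Bcl2l1 by 23.9 to 34.9 times. The RNA of Bcl2, Bcl2l1 and Mcl1 together was 0.144 to 0.181 times that of Bax and Bak1 together in untreated Ct and 0.145 to 0.161 times in CS-exposed libraries. With the annotated exon lengths the same sums gave 0.230 to 0.287 and 0.228 to 0.258 times, Bax to Bcl2 ranged from 30.7 to 43.7 times, and Casp6 to Casp9 from 0.0353 to 0.179. A ratio of single genes is multiplied by 1 constant in every library by such a change, so its overlap between groups cannot change. For Bax to Bcl2, Bax to Bcl2l1, Bak1 to Mcl1, Mcl1 to Bcl2, Casp6 to Casp9 and this sum, 6 ratios in all, the ranges of both groups overlapped. The ratio of Bid to Bcl2l1, which contains the Bid values given above, was 0.541, 0.482, 0.616 and 0.543 in untreated Ct replicates and 0.282, 0.432, 0.412 and 0.390 in CS-exposed replicates 1 to 4, with no overlap. For Casp6 to Casp9 the ratio moved from 0.101 to 0.514 over the libraries, the widest span among them.

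**Figure D4:**
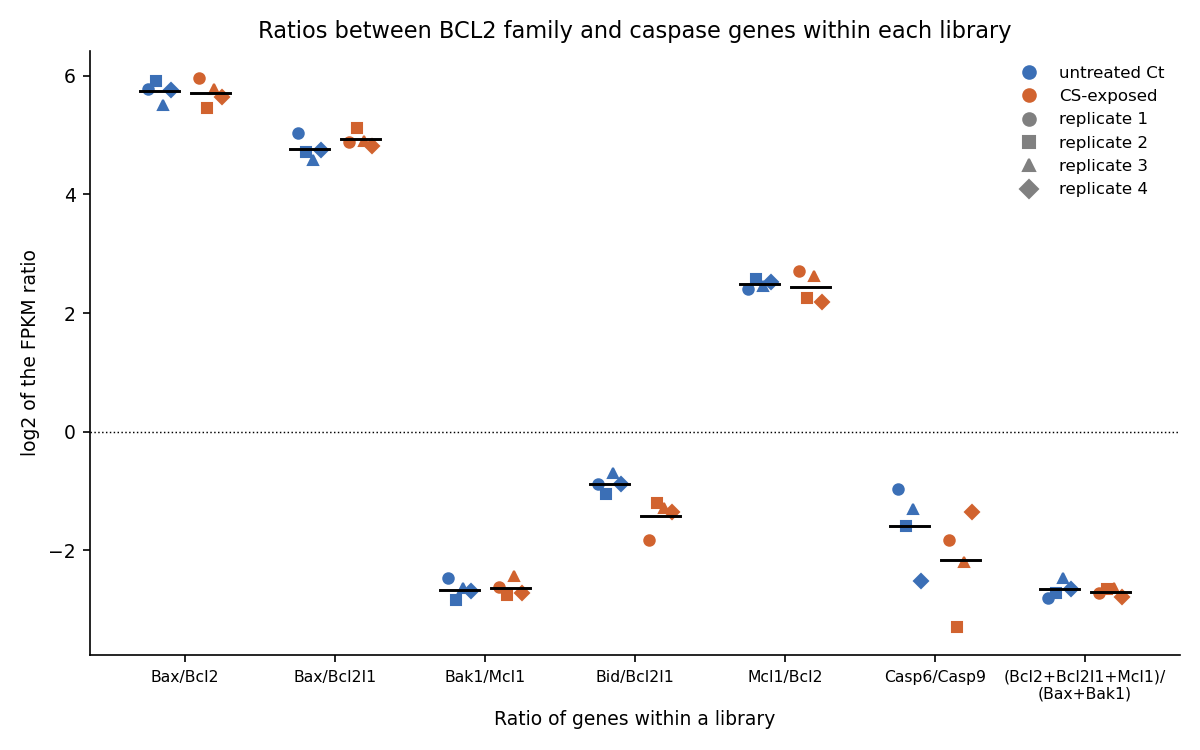
log2 of the FPKM ratio of genes within each library (blue untreated Ct, orange CS-exposed, shapes are replicate numbers, black bars are group means of log2 ratios, n = 4); the dotted line marks equal levels. Bax ratios lie between 23.9 and 62.2 times, and only Bid to Bcl2l1 separates the groups.

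The wider pathway was examined with 59 further genes listed by role, of which 37 reached the minimum of 1.0 FPKM and were tested. One of these 37 (2.70%) had an unadjusted limma p under 0.05, against 4.83% of all tested genes, 0 had groups that did not overlap, against 3.08%, and 0 passed after adjustment, with a smallest adjusted p of 0.956 from limma. Their log2 fold changes had a median of -0.00 and ran from -0.37 to 0.25, 20 of them below 0 and 17 above.

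The 1 gene was Bcl2l11, which encodes BIM, a BH3-only protein that binds the anti-apoptotic members. Bcl2l11 was at 2.09, 1.70, 2.47 and 1.87 FPKM in untreated Ct replicates and at 1.496, 1.49, 1.84 and 1.33 FPKM in CS-exposed replicates 1 to 4. CS-exposed replicates 1, 2 and 4 lay under the lowest untreated Ct value, and replicate 3 did not. The log2 fold change was -0.37 (95% interval -0.74 to -0.01, limma p = 0.0440, exact permutation p = 0.0571), and without any 1 of 6 of the libraries in turn, both groups included, the limma p was no longer under 0.05, while the log2 fold change in these 6 fits was -0.41 to -0.28. The highest p, 0.138, was found without untreated Ct replicate 3. Of the 7 listed BH3-only genes beside Bid, 4 were tested, and Bcl2l11 was the 1 with an unadjusted limma p under 0.05. Bad, at 10.2 ± 0.342 FPKM in untreated Ct and 9.70 ± 1.73 FPKM in CS-exposed mice (n = 4 each, SD), and Bbc3, which encodes PUMA, at 5.03 ± 0.376 and 4.71 ± 0.450 FPKM, overlapped between groups.

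The relatives of the anti-apoptotic members were represented by Bcl2l2, which encodes BCL-W and was, at 17.9 ± 1.25 FPKM in untreated Ct and 18.5 ± 0.998 FPKM in CS-exposed mice (n = 4 each, SD), above Mcl1. Bcl2a1a, Bcl2a1b and Bcl2a1d, forms known from leukocytes, were listed at 0 in every library. Bok, a further effector, was at most 0.299 FPKM, and Bcl2l10 at most 0.141 FPKM. Bnip3l and Bnip3, which mark mitochondria for removal, were at 117 to 123 FPKM and at 23.5 to 26.7 FPKM over all libraries, with log2 fold changes of -0.01 and -0.02.

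Inhibitors of apoptosis were led by Birc7, which encodes livin, with 202 ± 12.2 FPKM in untreated Ct and 202 ± 6.00 FPKM in CS-exposed mice (n = 4 each, SD), a level above that of Bax. Xiap, at 3.27 to 4.94 FPKM, and Birc2, at 2.45 to 4.17 FPKM, were far lower, and of the 6 listed inhibitors 4 were tested and 0 had an unadjusted limma p under 0.05. Casp8, whose product cleaves BID, did not reach the minimum, with at most 0.449 FPKM.

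In the other roles no tested gene had an unadjusted limma p under 0.05. Vdac1, Vdac2 and Vdac3, the channels of the outer mitochondrial membrane, were at 35.4 to 40.2, 37.4 to 46.8 and 28.3 to 35.7 FPKM, the highest of the 7 tested apoptosome and mitochondrial factors. The count was also 0 for the 5 tested genes of the death receptor arm, led by Fas at 17.2 to 23.1 FPKM, for Dffa and Dffb of DNA fragmentation, for the regulators of MCL1 stability Huwe1, Usp9x and Fbxw7, and for Bag1 (130 to 138 FPKM), Tmbim6 (87.4 to 97.7 FPKM) and Bag3 (9.34 to 11.7 FPKM). The inflammatory caspases Casp1, Casp4 and Casp12 did not exceed 0.197 FPKM, and Casp14 was listed at 0 in every library.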

How the data were processed

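RNA of 8 pools of lens FC, 4 per group, was sequenced, and groups were taken from the sample titles. Per the labels and methods, the authors aligned paired reads to GRCm38 with STAR 2.5, assigned them to genes (HTSeq 0.6.1) and deposited FPKM per library. The annotation release is not given in the sources used here. The deposited table also holds the authors' mean FPKM of each group, their log2 fold change, p-value and adjusted p-value of the same comparison, which were not used.

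Of 35275 genes, 9794 averaged 1.0 FPKM or more in 1 of the groups. They were tested, two-sided, on log2(FPKM + 0.1) by limma 3.58.1 (R 4.3.3; moderated variances with a trend), and Benjamini-Hochberg adjustment over all 9794. This scale understates changes of low genes. Single genes were also compared over all 70 assignments of the libraries (exact permutation test). The p-values measure the spread between pools. Whole reads (within 0.02 of a whole number) were found for 99.8% of the tested genes from the steps of the FPKM values, and the fragment totals rest on gene lengths of GENCODE M21, on which 781 of 9295 genes gave the same total for the first library. Intervals of reads cover counting error only. Promoter windows are from RefSeq (GRCm38.p6). The rest was done in Python 3.11.15 (numpy 2.4.6, pandas 2.3.3, scipy 1.17.1, matplotlib 3.10.9), and the fit was tested on simulated data.

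The 8 members and all gene lists were chosen with earlier results of these data known. Named beside the members were genes of the list of the wider pathway with an unadjusted p under 0.05, up to 3 genes per role with the highest mean FPKM, and for each member the gene most like it. Casp8, Casp14, the Bcl2a1 genes, Endog and Birc3 were named in addition, after their values were seen. Some genes of the list are not reported here by name. Alternatives were other pseudocounts (1 and 0.01), other filters, median centring, quantile normalization, moderation without the trend or robust, a replicate block, limma-voom on the recovered reads, and leaving out each library in turn. Leaving out replicate 3 of both groups, and exon lengths of GENCODE M21 for the ratios, were added after seeing the data.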

Additional observations from a re-analysis of the deposited data

Results flagged for a closer look

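Dixon's test at the 95% level was run on 112 sets of 4 values (1 gene or marker sum in 1 group). It singled out 9 values. Chance would give about 5.6 in independent sets of normal values. Sets made up mostly of zeros are not normal, so 9 and 5.6 cannot be compared. Bid was at 1.20 FPKM in CS-exposed replicate 1 and at 1.76 to 1.80 FPKM in the other 3 CS-exposed libraries. Without this library the log2 fold change of Bid was -0.50 in place of -0.63. Values of 3 genes close to 0 stood apart because the other 3 libraries of the group were listed at 0, which fixes the outcome of the test. These were Bcl2l10 in untreated Ct replicate 3 (0.141 FPKM), Casp1 in untreated Ct replicate 3 (0.115 FPKM) and CS-exposed replicate 2 (0.0579 FPKM), and Casp4 in untreated Ct replicate 1 (0.0529 FPKM) and CS-exposed replicate 3 (0.0256 FPKM), none with more than 2 reads. Among markers of other cells, the retinal pigment epithelium sum was 25.4 FPKM in CS-exposed replicate 3 and 2.68 to 5.78 FPKM in CS-exposed replicates 1, 2 and 4. The sum of 5 pigment cell markers was 6.52 FPKM in CS-exposed replicate 4 against 0.425 to 0.608 FPKM, and that of 5 erythroid markers 22.8 FPKM in the same library with at most 4.23 FPKM in the other 3.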

How the results depend on the processing

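Bid kept its direction and an unadjusted p under 0.05 in 18 of 18 alternatives that tested it, with log2 fold changes of -0.68 to -0.50 when single libraries were left out (limma p of 0.00209 to 0.00555) and of -0.66 to -0.44 under the other settings. With a minimum of 5 FPKM only Bax and Mcl1 among the members were tested, so that 0 members were called. Without untreated Ct replicate 4 there were 2, the second being Casp6 (log2 fold change -0.81). Over the fits that left out 1 library, 1 to 2 members, 0 to 2 genes of the wider pathway and 418 to 525 of all genes had a p under 0.05. All genes came to 862 of 21019 with no minimum and to 226 of 4822 with a minimum of 5 FPKM, against 473 as reported, and the pathway to 3 genes, with Endog and Birc3 beside Bcl2l11, and to 0. Without replicate 3 of both groups the pathway had 2, Birc2 and Dffa, both higher in CS-exposed mice, and Bcl2l11, at -0.36, missed the threshold with nearly the same difference as reported (-0.37).

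Small differences changed direction when single libraries were left out. The ranges were -0.0525 to 0.1692 for Bcl2, -0.0366 to 0.0947 for Mcl1, -0.0656 to 0.0947 for Bax, -0.042 to 0.1468 for Bak1 and -0.0664 to 0.1682 for Casp9, and Casp6 ranged from -0.81 to -0.25. Without replicate 3 of both groups Mcl1 was at -0.0465, Bax at -0.06 and Bak1 at -0.0709. The cause was not tested.

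A fit with the replicate number as a block was made too. The deviations of same-numbered libraries correlated across genes with 0.012, 0.0777, 0.111 and 0.161 for numbers 1 to 4, and differently numbered ones with -0.0301 on average. Deviations were taken from group means, which ties the second average to the first values. Whether the numbers pair the libraries therefore cannot be told from them, and the labels do not say. With the replicate block, which in this balanced design cannot change a fold change, Bid was at -0.63 (adjusted p = 0.498 from limma), and 522 of all genes had a p under 0.05, with no other member called.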

Other observations

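For each member, the gene most like it over the 8 libraries was sought among the 9793 other genes tested, by Pearson r of log2 values. With 8 points and so many genes high values are found for any gene, and the pairs are given as a description. Bid was most like Zer1 (r = 0.958), a subunit of a ubiquitin ligase, and Casp9 most like Katna1 (r = 0.963), which encodes a protein that severs microtubules. Mcl1 was most like Evc (r = 0.968) and Bax most like mt-Nd4l (r = 0.977), a mitochondrial gene with a mean of only 0.949 FPKM. The others were Tmem261 for Bcl2 (r = 0.943), Yipf5 for Bcl2l1 (r = 0.957), Dmxl2 for Bak1 (r = 0.957) and Zfp335os for Casp6 (r = 0.956). The points of each pair share library and depth.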
